A study of Homo sapiens with 2 samples.

Results

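The RNAs described here are long non-coding RNAs (lncRNAs) of A375 cells, an established human melanoma line, that carry a LINC symbol, the placeholder name given to long intergenic non-coding RNA genes that had no other name. They were chosen as the rows classed as lncRNA in the authors' deposited table whose gene symbol is LINC followed directly by digits. LINC01021, LINC01759, LINC00346 and LINC00152 were left out by the same rule. This gave 153 rows of 3576, under 148 gene symbols, all 153 with a RefSeq NR accession. The study sequenced non-coding RNA of A375 cells labelled WT, after ionizing radiation (8 Gy) and without it (0 Gy). It had 1 library per dose and asked how melanoma cells come to resist radiation. The labels give no time after irradiation.

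The column names of the deposited table match neither sample's labels, so no fold change below can be tied to a dose. The library on top of the authors' ratio is called the numerator library and the other the denominator library. Total reads per library are unknown. Each fold change was traced to the smallest pair of whole read numbers that gives it, which was possible for 151 of the 153 rows. The reads counted could be that pair or any multiple of it, so read numbers below are minimums. Intervals are exact (Clopper-Pearson) 95% intervals on the pair. They cover at most counting error, and not the spread between libraries. Reads copied by PCR are not independent molecules, so even counting error may not be fully covered. Where the reads counted were a multiple of the pair, the interval is wider than those reads would give. Counts of intervals by position thus hold for the smallest pairs, and not for the reads actually counted. Without replicates, differences could not be set against a spread between samples, and no difference between sets of rows was tested. SAMMSON, a lncRNA of the melanocyte lineage and thus a marker of the labelled cell type, was listed with at least 335 reads in the numerator library and 337 in the denominator library.

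A LINC number says only in which order a gene was registered, not what it does. Many of these RNAs have no known function, while others recruit chromatin regulators, act on a neighbouring gene, are spliced around snoRNAs or microRNAs, or have since been found to encode a small protein. Many are expressed at low levels and in few cell types, and their transcripts often contain repeat sequence that is shared with other genes. In present RefSeq annotation, 20 of the 148 genes overlap a coding gene on either strand, so the word intergenic does not hold for these. The sources used here do not say whether counting used strand, so reads of overlapping genes may not be separated. Among members named below, this concerns LINC00473 (PDE10A), LINC01547 (SLX9), LINC01089 (SETD1B) and LINC01184 (CCDC192), among others.

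Promoters are shown for members at both ends of the ranking by fold change, so that the starts of RNAs that were high and low in the numerator library can be compared. The first 4 are the highest, and the last 2 the lowest, of the members with at least 50 reads in 1 library that had a promoter in the RefSeq table (GRCh38.p14). Each runs 5′ to 3′ from 250 bases before the gene start to 50 bases from it. Capitals mark the TATA box TATAAA, the CCAAT box CCAAT and the E-box CACGTG, each searched on both strands, and no marked matches overlap.
LINC00997, chr7:32758036-32758335, plus strand: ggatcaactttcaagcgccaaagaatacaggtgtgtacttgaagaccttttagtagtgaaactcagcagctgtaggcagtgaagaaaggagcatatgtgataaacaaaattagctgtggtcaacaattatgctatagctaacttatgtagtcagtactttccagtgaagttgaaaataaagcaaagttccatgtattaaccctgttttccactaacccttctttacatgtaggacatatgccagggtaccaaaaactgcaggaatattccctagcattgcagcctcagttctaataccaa
LINC00601, chr10:126421830-126422129, minus strand: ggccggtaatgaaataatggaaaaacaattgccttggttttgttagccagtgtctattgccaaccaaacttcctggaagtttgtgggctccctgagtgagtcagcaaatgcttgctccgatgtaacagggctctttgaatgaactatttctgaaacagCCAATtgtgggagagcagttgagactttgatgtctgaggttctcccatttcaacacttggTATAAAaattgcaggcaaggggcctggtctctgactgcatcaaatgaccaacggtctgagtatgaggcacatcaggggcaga
LINC01569, chr16:4253740-4254039, minus strand: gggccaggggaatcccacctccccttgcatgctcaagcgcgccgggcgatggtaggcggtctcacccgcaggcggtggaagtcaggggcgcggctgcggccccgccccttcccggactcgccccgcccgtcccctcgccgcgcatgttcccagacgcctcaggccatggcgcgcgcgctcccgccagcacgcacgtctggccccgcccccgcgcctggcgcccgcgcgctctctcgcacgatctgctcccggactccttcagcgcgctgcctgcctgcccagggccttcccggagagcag
LINC01687, chr21:22098410-22098709, minus strand: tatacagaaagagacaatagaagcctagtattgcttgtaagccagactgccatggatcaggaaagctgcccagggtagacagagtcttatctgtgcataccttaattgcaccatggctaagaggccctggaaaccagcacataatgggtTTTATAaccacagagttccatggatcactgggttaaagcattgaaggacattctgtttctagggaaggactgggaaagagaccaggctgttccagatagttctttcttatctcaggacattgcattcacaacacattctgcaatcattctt
LINC01970, chr17:82292765-82293064, minus strand: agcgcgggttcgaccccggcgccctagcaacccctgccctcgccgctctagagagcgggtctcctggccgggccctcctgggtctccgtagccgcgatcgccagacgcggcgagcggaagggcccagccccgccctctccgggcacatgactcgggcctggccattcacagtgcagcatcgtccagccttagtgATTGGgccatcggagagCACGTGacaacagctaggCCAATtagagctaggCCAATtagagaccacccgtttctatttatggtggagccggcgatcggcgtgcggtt
LINC00920, chr16:66408274-66408573, plus strand: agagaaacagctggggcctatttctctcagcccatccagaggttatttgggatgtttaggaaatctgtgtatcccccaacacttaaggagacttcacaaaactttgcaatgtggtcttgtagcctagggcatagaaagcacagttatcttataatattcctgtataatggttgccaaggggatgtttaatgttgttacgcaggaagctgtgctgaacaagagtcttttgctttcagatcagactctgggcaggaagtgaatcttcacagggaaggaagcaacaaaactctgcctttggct

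The promoter of LINC00601 had a TATA box 32 bases before the start and a CCAAT box 92 bases before it, and that of LINC01687 a TATA box on the other strand 101 bases before the start. The promoter of LINC01569 was a GC-rich one with 39 CpG dinucleotides and 76.0% G and C, and it held none of the marked motifs. LINC01970, at the low end, had 29 CpG dinucleotides and an E-box 39 bases before the start. Its CCAAT boxes stood 6 and 21 bases before the start, with a further one on the other strand 56 bases before it. LINC00997 and LINC00920, one at each end, were both poor in CpG, with 1 each, and had no marked motif.

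Promoters were found for 110 of the 148 genes. A CCAAT box stood in 4 of 10 promoters of members with a fold of 2 or more toward the numerator library, in 2 of 3 with such a fold toward the denominator library and in 39 of 97 of the rest, against 34.6% of all 35116 promoters. The TATA box occurred in 2 of the 10, 0 of the 3 and 12 of the 97, against 11.5% of all. The p53 half-site is only a part of the recognition element of the radiation-activated factor p53. This half-site matched in 0 of the 10, 0 of the 3 and 5 of the 97, against 6.63% of all promoters. The E-box was in 1 of the 10, 1 of the 3 and 7 of the 97, against 7.26% of all. A match describes these letters only, and the groups at either end are small.

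Across the 153 rows, log2 fold changes in the authors' deposited table ran from -1.54 to 3.25, with quartiles of -0.23 and 0.57. The median of the LINC rows was 0.17, beside 0.16 for all RNAs, 0.10 for the 645 other lncRNA rows and 0.30 for the 645 Ensembl lincRNA rows. A value above 0 was found in 91 LINC rows (59.5%), against 60.9% of all RNAs. Their spread was narrower, with quartiles of -0.24 and 0.70 over all RNAs.

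**Figure D1:**
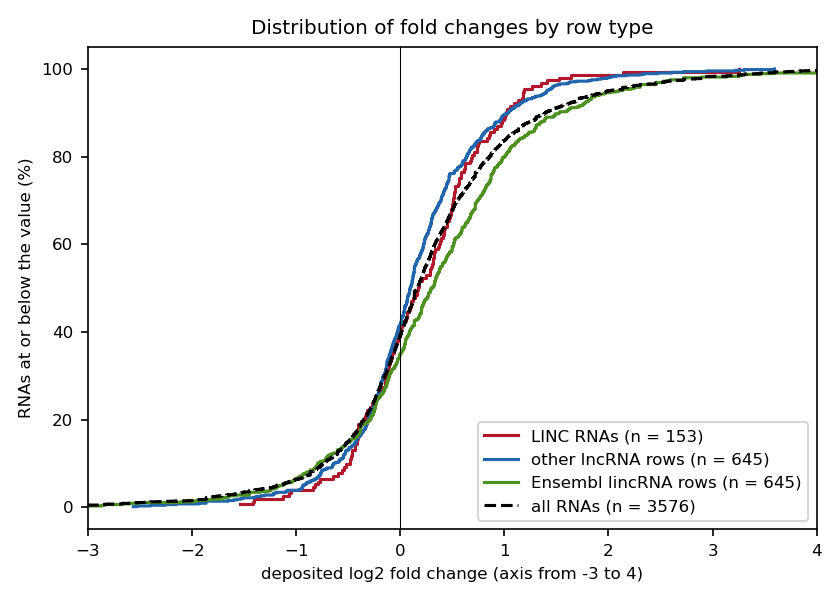
Cumulative share (%) of rows at or below each deposited log2 fold change, for LINC RNAs (153 rows), other lncRNA rows (645), Ensembl lincRNA rows (645) and all RNAs (3576). The LINC curve crosses 50% at 0.17, next to the curve of all RNAs at 0.16, and the lincRNA curve crosses it farther right, at 0.30.

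At least a 2-fold difference was seen in 23 rows. Of these, 17 (11.1%) were higher in the numerator library, below the 16.3% of all RNAs, and 6 (3.92%) were lower, below the 6.35% of all RNAs. The counting interval lay above 1 in 50 of the 151 rows with a read pair (33.1%), against 21.4% of all RNAs, and below 1 in 12 (7.95%), against 7.72%. In the other 89 rows the interval of the smallest pair lay on both sides of 1, and larger read numbers at the same ratio would narrow it. When every value was taken relative to the median of all RNAs, 0.16 on the log2 scale, 11 rows were 2-fold higher (7.19%, against 13.1% of all RNAs) and 6 were 2-fold lower (3.92%, against 8.19%). The same scaling gave 33 intervals above 1 (21.9%, against 14.3% of all RNAs) and 25 below it (16.6%, against 14.0%), so the share above among intervals off 1 was 56.9% with it and 80.6% without it. Over all RNAs, 755 intervals lay above 1 and 273 below as deposited, and 506 above and 495 below after scaling. The lean and its drop were thus also seen in the whole table.

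Values varied with the mean read number of the pair. A mean under 30 was found in 42 of the 151 LINC rows but in 1774 of the 3535 RNAs with a pair. The shares over all rows given above thus compare sets of unlike read numbers. Among the 56 rows with a mean of 100 or more, 40 had a value above 0 (71.4%, against 62.4% of all RNAs with such pairs) and 27 had an interval above 1 (48.2%, against 32.4%). An interval below 1 was found in 6 of the 56 (10.7%, against 12.8%). Of the same 56 rows, 5 were 2-fold higher (8.93%, against 4.43%) and 0 were 2-fold lower, against 0.380%. Among the 53 rows with a mean of 30 to below 100, 17 intervals lay above 1 (32.1%, against 25.8%) and 3 below (5.66%, against 7.42%). In this class 31 values were above 0 (58.5%, against 63.5%), 7 rows were 2-fold higher (13.2%, against 9.89%) and 1 was 2-fold lower (1.89%, against 1.34%). Among the 42 rows under 30 reads 19 were above 0 (45.2%, against 59.0%), 6 intervals lay above 1 (14.3%, against 14.0%) and 3 below (7.14%, against 5.64%). Of the 42, 5 were 2-fold higher (11.9%, against 25.0%) and 5 were 2-fold lower (11.9%, against 11.8%). The differences between these shares were not tested. Since a pair can be a reduced form of larger numbers, these classes sort pairs and not true depth.

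**Figure D2:**
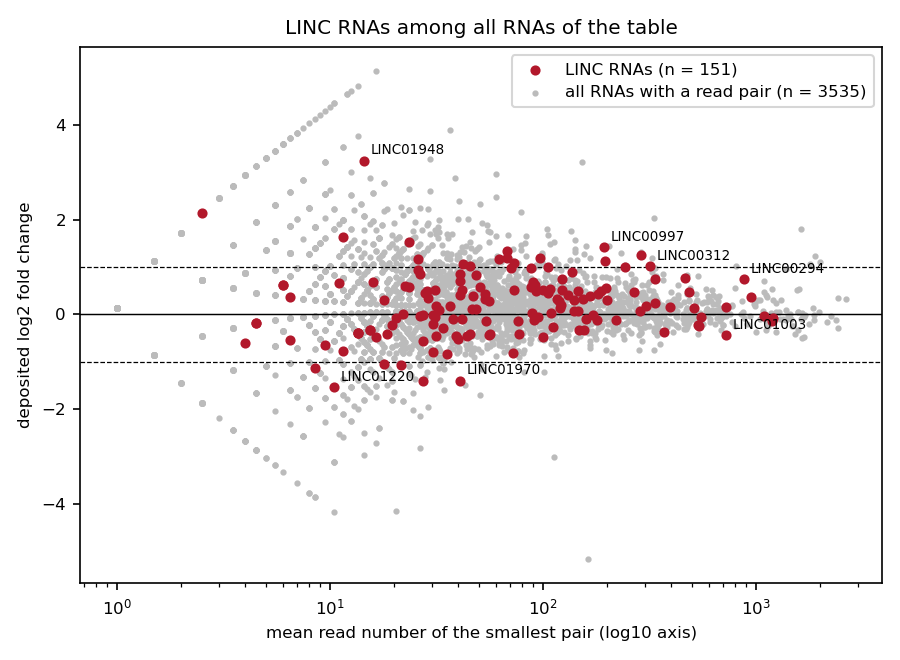
Deposited log2 fold change against the mean read number of the smallest pair (log10 axis), for 151 LINC RNAs in red and all 3535 RNAs with a read pair in grey, with dashed lines at 2-fold. Of the LINC RNAs with a mean of 100 or more, 5 lie above the upper dashed line and 0 below the lower one.

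In the authors' deposited table none of the 153 rows has q under 0.05, against 0.839% of all RNAs, and all 153 have q equal to 1. The deposited unadjusted p is under 0.05 for 1 of the 153, against 3.80% of all RNAs. That member, LINC01203, was named after its value was seen, and its unadjusted p in the authors' deposited table is 0.0328. LINC01203 had at least 172 reads in the numerator library and 101 in the denominator library, a 1.87-fold difference (1.45 to 2.42). LINC00294, with 1060 reads in the numerator library and 699 in the denominator library, has an unadjusted p of 0.175 in the authors' deposited table. These p-values compare 2 libraries and not the doses. The largest deposited p stood at a log2 fold change of -0.13 and not at 0. The p-values and the counting intervals may therefore take different values as no difference.

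The 12 highest members with at least 50 reads in 1 library all stood at 2.01-fold or more, and each interval lay above 1. They were ranked by the fold itself, and a row can pass the read filter through its higher library alone. Their interval positions are therefore no separate support. LINC00997, next to the vesicle transport gene AVL9, had at least 274 reads in the numerator library and 113 in the denominator library, a 2.66-fold difference (2.13 to 3.35). LINC00601, beside the protease gene ADAM12, had 95 reads against 41 and stood at 2.55-fold (1.75 to 3.77). LINC01004, beside the chromatin gene KMT2E, had 395 against 181 and stood at 2.40-fold (2.01 to 2.87). All 3 of these intervals overlap, and differences between these members were not tested, so their order is not established.

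LINC01569, beside the transcription factor gene TFAP4, had 131 reads in the numerator library and 63 in the denominator library (2.28-fold, 1.68 to 3.14). LINC02109, beside the cadherin gene CDH6, had 261 against 131 (2.19-fold, 1.77 to 2.72). The other members of this group were LINC01410, LINC01687, LINC01547, LINC00471, LINC00589 and LINC00342, between 2.01-fold and 2.27-fold, and LINC00312. LINC01410 and LINC00342 share 50.8% and 48.0% of their 31-base sequences with transcripts of other genes in GENCODE 29, so reads of near-identical copies may stand in their values.

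LINC00312 is a member with a reported role in radiation response, since it has been described as binding the end-joining kinase DNA-PKcs in nasopharyngeal carcinoma cells. It had at least 415 reads in the numerator library and 224 in the denominator library, 2.03-fold higher (1.73 to 2.40), an interval that reaches to both sides of 2. LINC00312 overlaps the coding gene LMCD1 in RefSeq, and reads of that gene could be included.

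**Figure D3:**
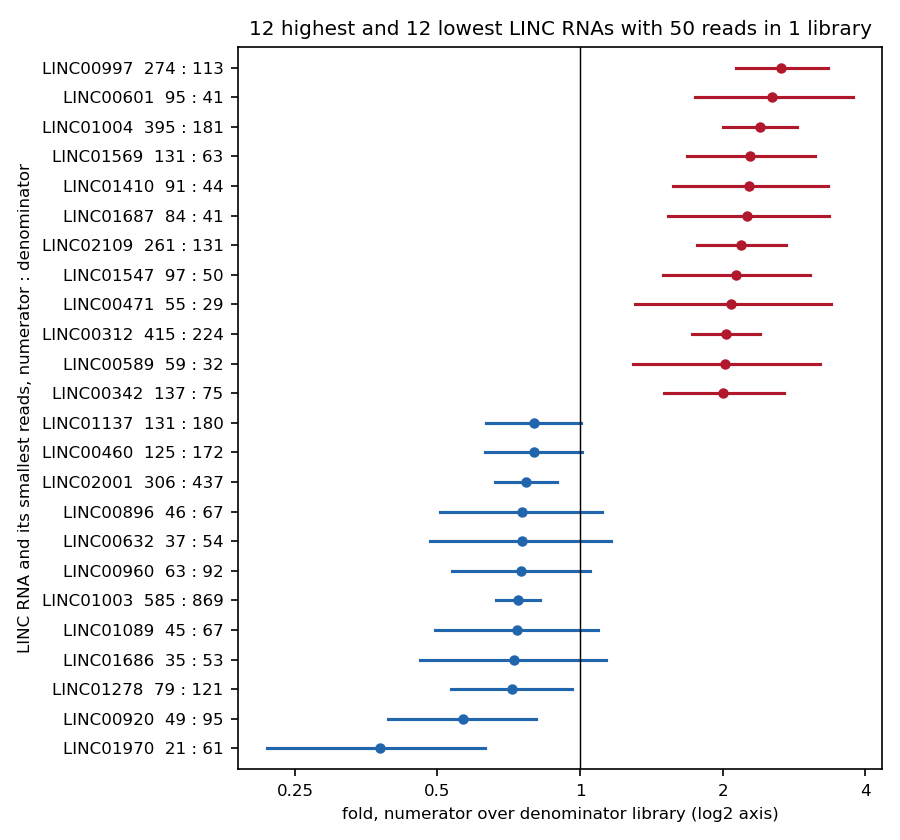
Fold of the numerator over the denominator library (log2 axis) with exact 95% counting intervals for the 12 highest (red) and 12 lowest (blue) LINC RNAs with at least 50 reads in 1 library, with the smallest read pair beside each name. All 12 red intervals lie above 1, from LINC00997 at 2.66-fold to LINC00342 at 2.01-fold, and 5 of the 12 blue ones lie below it. Both groups were ranked by this same fold, so where their intervals lie is no separate support.

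Among the lowest members, LINC01970, between the kinase gene CSNK1D and CD7, had 21 reads in the numerator library and 61 in the denominator library, a ratio of 0.378 (0.219 to 0.630). LINC00920, beside the endothelial cadherin gene CDH5, had 49 against 95 (0.567, 0.393 to 0.808).

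LINC01003 had 585 reads in the numerator library and 869 in the denominator library, with a ratio of 0.739 (0.665 to 0.822). LINC02001, now named SNHG30 as a host of snoRNAs, had 306 against 437 (0.769, 0.662 to 0.892), and LINC01278 had 79 against 121 (0.717, 0.533 to 0.960). These 3 and the pair above were the members of the 12 lowest whose intervals lay below 1. The others, LINC01686, LINC01089, LINC00960, LINC00632, LINC00896, LINC00460 and LINC01137, had ratios from 0.725 to 0.799 with intervals on both sides of 1. LINC01089 has been described as a suppressor of breast cancer metastasis, and LINC00632 is the transcript from which the circular RNA CDR1as is made, which was not told apart from it here. LINC01089 shares 48.5% of its 31-base sequences with transcripts of other genes, so its value is uncertain.

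Members with few reads reached larger ratios with wide intervals, and are named here after their values were seen. LINC01948, beside the kinase gene MAP3K1, had 26 reads in the numerator library and 3 in the denominator library, 9.52-fold higher (2.92 to 49.1). LINC01220, between FOS and JDP2, had 5 against 16, a ratio of 0.343 (0.0983 to 0.981). LINC01058 had 4 against 1, a number that may replace 0 reads, with an interval of 0.435 to 216.4. Around the 2-fold threshold, LINC00342 at 2.01-fold stood just inside and LINC00383 at 1.99-fold (314 reads against 173) just outside on the higher side, and LINC00449 at 0.483 inside and LINC00863 at 0.561 outside on the lower side.

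The members with the largest read pairs differed by less. LINC00963, first described in prostate cancer progression, had at least 1079 reads in the numerator library and 1312 in the denominator library (0.903, 0.833 to 0.980). Its unadjusted p in the authors' deposited table is 0.984. An Ensembl row of LINC00963, with 17 reads against 18, stood at 1.04-fold (0.502 to 2.13). LINC00839 had 1025 against 1146 (0.982, 0.902 to 1.07) and LINC00094 1117 against 1297 (0.946, 0.872 to 1.03). LINC00294 stood apart from these at 1.67-fold (1.51 to 1.84), and LINC00355, with 1021 against 866, at 1.30-fold (1.18 to 1.42). No read pair was found for LINC01029 and LINC01419, whose log2 fold changes in the authors' deposited table are 0.09 and -0.15.

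Of 6 LINC genes tied to radiation or DNA damage in other work, 3 were members, with 4 rows. Of the 4 rows, 3 had a value above 0 (75%, against 60.9% of all RNAs) and 1 a value below, with a median of 0.31 on the log2 scale against 0.16 for all RNAs. Besides LINC00312 and LINC00963, LINC00473, which the cAMP-responsive factor CREB induces, was listed in 2 transcripts. LINC00473 overlaps the coding gene PDE10A in RefSeq, and reads of that gene could be included. NR_026861.1 had 298 reads in the numerator library and 237 in the denominator library (1.38-fold, 1.16 to 1.64), and NR_026860.1 had 731 against 718 (1.12-fold, 1.01 to 1.24). Relative to the median of all RNAs the second stood at -0.0028 on the log2 scale, so scaling turned its direction.

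Of 28 LINC genes reported in tumours, 13 were members, in 15 rows, of which 11 had a value above 0 (73.3%, against 60.9% of all RNAs) and 4 below, with a median of 0.28. None was 2-fold different, 3 intervals lay above 1 (20%, against 21.4% of all RNAs) and 0 lay below. Relative to the median of all RNAs, 0 intervals lay above 1 and 2 below, those of LINC00460 and LINC00839, so each call named next is lost with that scaling. LINC01116 had 122 reads in the numerator library and 93 in the denominator library (1.44-fold, 1.09 to 1.91). LINC00704, now MANCR, an RNA that cancer cells need for orderly mitosis, had 117 against 94 (1.37-fold, 1.03 to 1.81). LINC01296, present symbol DUXAP9, had 165 against 128 (1.42-fold, 1.12 to 1.80), but 84.5% of its 31-base sequences occur in other genes, first of all in DUXAP10, so its value is uncertain.

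The remaining tumour genes gave intervals that included 1 as deposited. LINC00941 stood at 1.48-fold (0.801 to 2.79), LINC00324, beside the mitotic kinase gene AURKB, at 1.26-fold (0.728 to 2.20), LINC00662 at 1.22-fold (0.935 to 1.58) and LINC00667 at 1.13-fold (0.962 to 1.33). LINC00857 stood at 1.08-fold (0.700 to 1.65) and LINC00888, now SNHG33, at 1.07-fold (0.634 to 1.79). LINC00511, an RNA reported to bind the chromatin methyltransferase EZH2, had a ratio of 0.933 (0.744 to 1.17) and LINC00460 one of 0.798 (0.629 to 1.01). For these the read pairs did not set the ratio apart from 1 as deposited, and true depth is unknown. Among them, LINC00460 had an interval below 1 only relative to the median of all RNAs. LINC00665, with transcripts on either side of 1, is described with the genes of several rows.

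Of 12 LINC symbols since tied to a small protein or coding gene, 6 were members. Their median was -0.05 on the log2 scale, against 0.16 for all RNAs, with 2 above 0 (33.3%, against 60.9%) and 4 below. LINC00493, which encodes the mitochondrial protein SMIM26, had 467 reads in the numerator library and 601 in the denominator library (0.854, 0.755 to 0.965). LINC00116, which encodes the mitochondrial peptide mitoregulin (MTLN), had 38 against 45 (0.928, 0.586 to 1.46), and LINC00998, which encodes the membrane protein SMIM30, 26 against 29 (0.985, 0.557 to 1.73). LINC01314, now the cortexin-domain gene CTXND1, stood at 1.24-fold (1.01 to 1.52), and LINC00467 likewise at 1.24-fold, with an interval (0.974 to 1.58) that includes 1. Relative to the median of all RNAs, 0 intervals of the 6 lay above 1 and 2 below, so the call of LINC01314 is lost with that scaling. RefSeq types 5 members as coding, the 6 without LINC00467, and LINC00094 among them is now BRD3OS, on the opposite strand of the bromodomain gene BRD3.

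In all, 23 of the 148 genes now carry another symbol, in 24 rows, of which 1 was 2-fold higher (against 16.3% of all RNAs) and 0 were 2-fold lower (against 6.35%). LINC00565, now SWINGN, an RNA that binds the SWI/SNF chromatin remodeller near the gene GAS6, had 34 reads in the numerator library and 13 in the denominator library (2.87-fold, 1.48 to 5.93). Divergent transcripts, which start beside a coding gene and run away from it, numbered 6. Their median was -0.0048, against 0.16 for all RNAs, with 3 above 0 (50%, against 60.9%) and 3 below. SLC12A2-DT (LINC01184) stood at 1.40-fold (1.14 to 1.73), EOLA2-DT (LINC00894) at 1.53-fold (1.13 to 2.07) and RB1-DT (LINC00441), beside the tumour suppressor gene RB1, at 0.949 (0.486 to 1.84). EOLA1-DT (LINC00893) is a duplicate of EOLA2-DT and shares 49.4% of its 31-base sequences, chiefly with it, so its ratio of 0.793 (0.357 to 1.71) is uncertain.

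Other renamed members with a described role stood on both sides of 1. CHASERR (LINC01578), which limits the expression of its neighbour CHD2, had 163 reads in the numerator library and 195 in the denominator library (0.918, 0.741 to 1.14). LITATS1 (LINC01137), an inhibitor of TGF-beta signalling, had 131 against 180 (0.799, 0.633 to 1.01) and PRANCR (LINC01481), which sustains keratinocyte progenitors, 27 against 34 (0.872, 0.506 to 1.49). RDUR (LINC02085), an RNA induced in influenza infection, stood at 1.25-fold (0.841 to 1.87), with 91.8% of its 31-base sequences shared with another gene. ERCC6L2-AS1 (LINC00476) stood at 1.47-fold (1.20 to 1.80), and it overlaps the DNA repair gene ERCC6L2. Of 8 LINC symbols listed for a later non-coding name, only MANCR and CHASERR were members, with a median of 0.16, or -0.00014 after scaling to that of all RNAs.

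**Figure D4:**
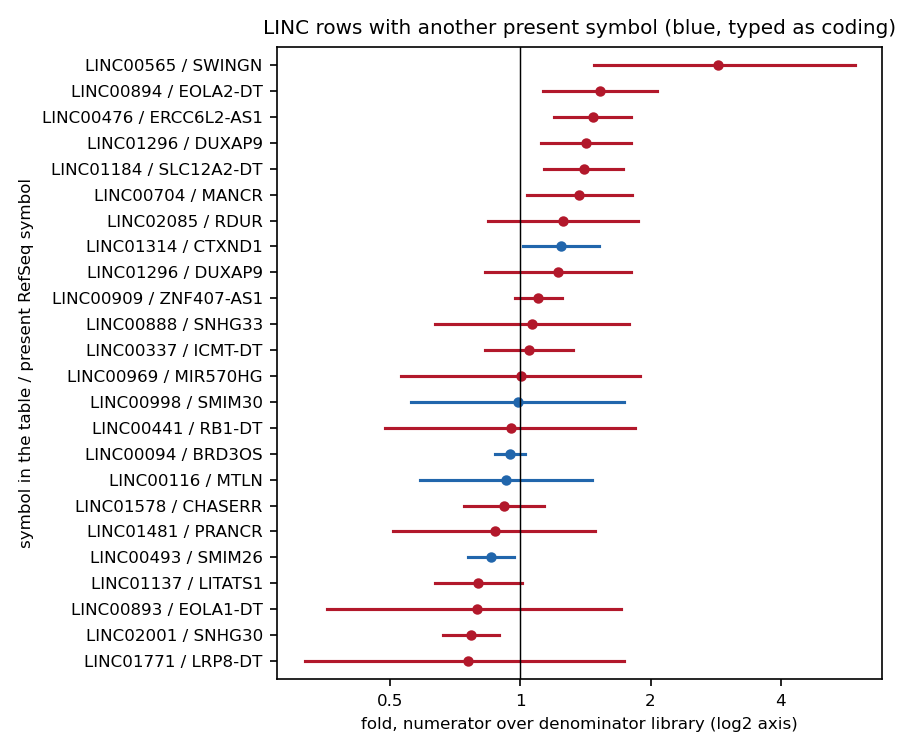
Fold of the numerator over the denominator library (log2 axis) with exact 95% counting intervals for the 24 rows whose present RefSeq symbol differs, with coding genes in blue. SWINGN lies farthest right at 2.87-fold, and the 5 coding rows lie between 0.854 and 1.24.

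Several genes had more than 1 row, which allows a look at how far values of a gene differ by transcript. In 5 member genes 2 RefSeq transcripts were listed, and in each the intervals of both transcripts overlapped. The difference between transcripts was not tested. LINC00665 had 45 reads in the numerator library and 37 in the denominator library in NR_038279.1 (1.34-fold, 0.845 to 2.12), but 25 against 38 in NR_038278.1 (0.723, 0.418 to 1.23). LINC00960 likewise stood at 1.09-fold (0.839 to 1.41) and at 0.752 (0.537 to 1.05) in its transcripts. LINC00173 stood at 1.91-fold (1.05 to 3.55) and 1.59-fold (0.627 to 4.21), with both transcripts on the numerator side.

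A further 25 Ensembl rows in the table belong to 13 of the member genes by GENCODE 29, and 15 of the 25 have the sign of the RefSeq row. Values above 0 made up 59.5% of LINC rows and 65.1% of Ensembl lincRNA rows, so rows of unrelated genes would also often share a sign. These rows may count some of the same reads, so they are not independent of each other. LINC01203 had 3 Ensembl rows, with 131 reads against 67, 85 against 53 and 73 against 42 in the numerator and denominator libraries. They stood at 2.15-fold (1.59 to 2.93), 1.76-fold (1.24 to 2.53) and 1.91-fold (1.29 to 2.86), around the 1.87-fold of the RefSeq row. LINC01687, at 2.25-fold in its RefSeq row (1.53 to 3.35), stood at 3.59-fold (1.98 to 6.89) in its Ensembl row.

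Elsewhere the rows of a gene went apart. LINC01184 had 6 Ensembl rows from 0.499 (0.136 to 1.56) to 26.4-fold (4.30 to 1084), at the upper end from 24 reads against 1, which may replace 0 reads. Of these 6, 3 lay above 0 on the log2 scale and 3 below. LINC01089, at 0.738 in RefSeq, had an Ensembl row with 144 reads in the numerator library and 107 in the denominator library (1.48-fold, 1.14 to 1.92) and another with 131 against 170 (0.846, 0.669 to 1.07). LINC01239 had a ratio of 0.959 (0.851 to 1.08) in RefSeq, from 517 against 592, and stood at 3.11-fold (1.17 to 9.64) in an Ensembl row of 17 against 6. CHASERR (LINC01578), at 0.918 in RefSeq, stood at 1.95-fold (0.813 to 5.01) in an Ensembl row of 16 against 9.

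**Figure D5:**
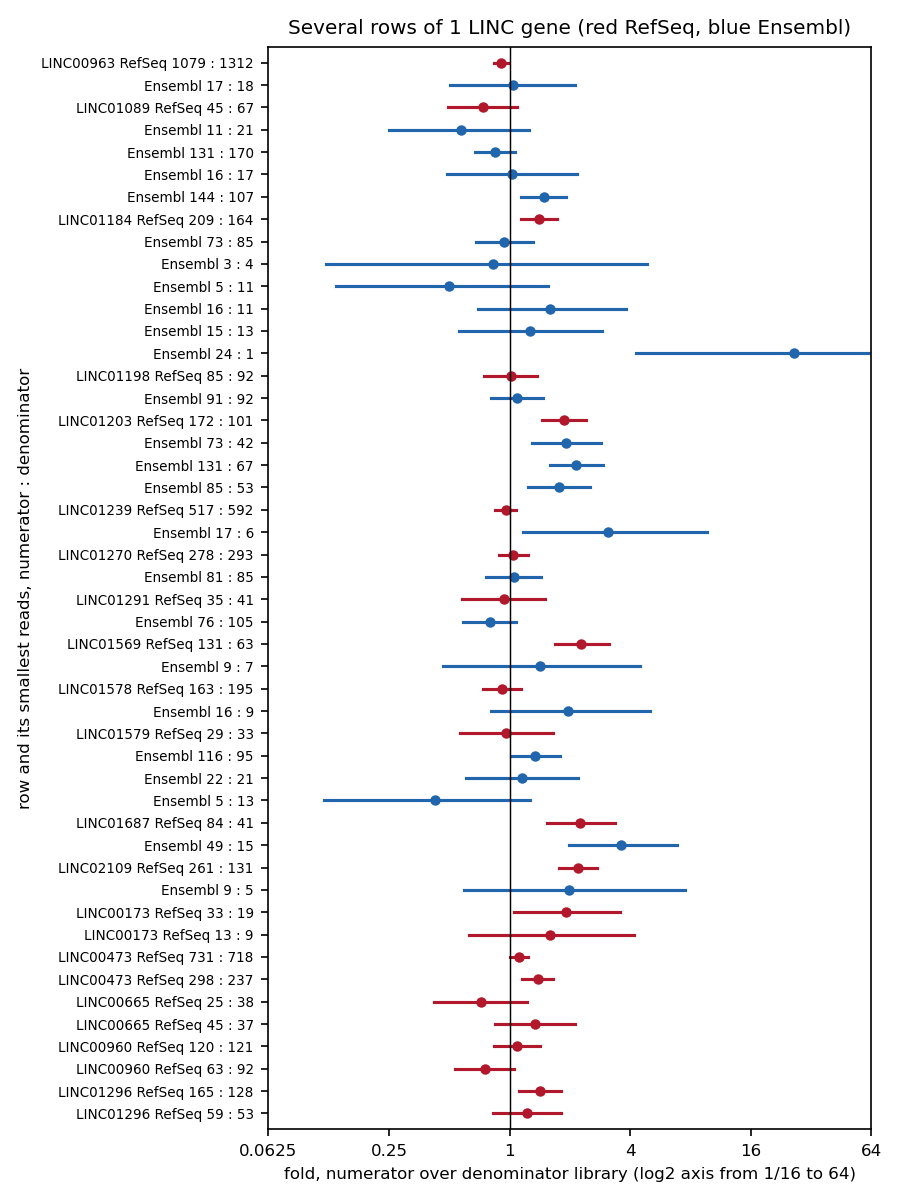
Fold of the numerator over the denominator library (log2 axis, from 1/16 to 64) with exact 95% counting intervals for member genes with several rows, RefSeq in red and Ensembl in blue. All 4 rows of LINC01203 lie above 1, while the rows of LINC01184 run from 0.499 to 26.4-fold.

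All RNAs had 60.9% of values above 0, 16.3% higher by 2-fold and 6.35% lower by 2-fold. Grouping the members by registration order gave 77 rows numbered below 1000, with a median of 0.30, 51 of them above 0, 8 higher by 2-fold and 2 lower by 2-fold. The 70 rows numbered from 1000 to below 2000 had a median of 0.07, 37 above 0, 8 higher by 2-fold and 4 lower by 2-fold. Of the 6 rows numbered 2000 and above, 3 were above 0. Rows that overlap a coding gene in RefSeq had a median of 0.06 over 21 rows, and the 132 others one of 0.18.

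None of the 148 genes overlaps, or has as its nearest coding gene on either side, any of 45 well-known p53 target genes. The same share was not computed for other genes, and 45 targets are few among all coding genes, so this absence is no trait of these members. A zinc finger gene (symbols ZNF, ZFP or ZSCAN) overlapped or was nearest for 15 rows, whose median was 0.12, with 8 above 0 (against 60.9% of all RNAs), 7 below and none 2-fold higher or lower (against 16.3% and 6.35%). Of these, LINC00664, between ZNF493 and ZNF429, had 113 reads in the numerator library and 63 in the denominator library (1.97-fold, 1.44 to 2.73). LINC00622 stood at 1.78-fold (1.16 to 2.76), and the other 13 intervals included 1.

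Some members lie between the same coding genes. LINC00704 stood at 1.37-fold and LINC00702, likewise between KLF6 and AKR1E2, at 0.793 (0.357 to 1.71). LINC01037 and LINC01036, between PLA2G4A and BRINP3, stood at 2.26-fold (1.23 to 4.30) and 1.28-fold (0.369 to 4.62). LINC00526, at 1.41-fold (1.04 to 1.91), shares 40.3% of its 31-base sequences with other genes, chiefly with its neighbour LINC00667. The intervals overlap within each of these pairs, which is no test of a difference, and differences between neighbours were not tested.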

How the data were processed

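Irradiated (8 Gy) and control (0 Gy) A375 cells gave 1 mRNA-seq library each, from total RNA taken with TransZol, per the labels' protocols. The submitters' processing notes name only the mouse build mm10, and the cells are human. The sources used here do not name aligner, counting or test, so depth per library is unknown. Per the file headers, the authors deposited, for every RNA, p-value, q-value and log2 fold change. The 2 columns of per-sample values match neither sample's labels and were not used.

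The most frequent log2 fold change, 0.14 (66 RNAs), was taken as that of equal read numbers, a depth ratio of 1.10. Each value was then searched for the smallest whole-number pair up to 3000 that gives it within 1.5e-09, and 3535 RNAs (98.9%) had a pair. The method was checked on simulated data. The check of pairs scored a match to the smallest pair, and that of intervals used full read numbers. Neither shows that the reads actually counted were recovered. RefSeq matched 148 rows by accession and 5 by older symbol. GENCODE 29 transcripts of 136 genes gave shared sequences of 31 bases on both strands.

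By rule, the text names the 12 highest and 12 lowest with 50 reads in 1 library, the 5 largest pairs, members of 4 gene lists, those without a pair and those next to the 2-fold threshold. Promoters on chromosome 8 were not printed. The same rule names members with q under 0.05, of which there were 0. LINC01203 was named for its p after it was seen. Groupings by renamed symbol, zinc finger neighbours, shared neighbours and mean read number, and further members described from them, were added after the values were seen. The members and lists were chosen with earlier results of these data known. Software was scipy 1.17.1, pandas 2.3.3, numpy 2.4.6 and matplotlib 3.10.9 under Python 3.11.15.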

Additional observations from a re-analysis of the deposited data

How the results depend on the processing

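Counts and medians were recomputed with other settings. Scaling by the median over all RNAs gave 11 members at least 2-fold higher, 33 intervals above 1 and 25 below, and a median of 0.011. It turned the median of the members with a later non-coding name to -0.00014 and the NR_026860.1 transcript of LINC00473 to -0.0028. Among the tumour genes it left 0 intervals above 1 and 2 below, a comparison chosen after seeing the data. Of 54 named rows with a read pair, 47 stayed within their counting interval under this scaling, and 13 of all 153 changed sign. Taking equal read numbers as no change gave 11 members higher and 22 intervals below 1. A minimum of 50 reads in 1 library, which a member can pass through its higher library alone, left 1 member 2-fold lower and gave a median of 0.32. A mean of at least 50 reads, chosen after seeing the data, gave 10 members higher, 0 lower, 7 intervals below 1 and a median of 0.31. A 4-fold threshold gave 2 higher and 0 lower, a 1.5-fold threshold 37 and 12, and 99% intervals 6 below 1. A read minimum of 10, 1 value per symbol, leaving out pairs with a 1 and leaving out coding members kept these counts within 1.5 times. No paired analysis was possible because each dose has 1 library. Library depth is unknown, so its limit on single members could not be given.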
